A study of Mus musculus with 16 samples.

Results

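In mouse clear cell sarcoma (CCS) tumors, 1677 of the 20375 peaks called for RNAPOL2, the phosphorylated RNA polymerase II that transcribes genes, lay inside protein-coding genes with no called peak of acetylated histone beneath them. They made up 8.23% of the list. They were chosen by measured peak positions and by annotation. Each stayed outside the window of 3 kb around every transcription start site (TSS), shared no base with a peak of H3K27ac, overlapped a protein-coding gene record, and kept clear of the 5 kb past the end of any protein-coding gene. Of 5720 RNAPOL2 peaks outside the TSS windows, 3157 had no acetylation, 2291 of these touched a coding gene, and the window past gene ends then removed 614. The lack of an H3K27ac peak and the distance from TSSs are therefore what defined these peaks and are not results.

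The tumors were from mice of mixed 129/SvJ and C57Bl/6 background that carry a V5-tagged human EWSR1::ATF1 fusion (EA1) at the Rosa26 locus, silent until Cre recombinase is supplied. All groups shared this genotype, given in the labels as EWSR1::ATF1, and the fusion had been switched on by injecting TATCre, a cell-entering form of Cre, into the hindlimb at 4 weeks of age. The promoter of Rosa26 is active in most cell types, so the fusion could be expressed in any cell that TATCre reached. The labels give no age or time of collection, and no tumor without the fusion was included. Tumor chromatin was immunoprecipitated and sequenced (ChIP-seq) with antibodies against V5, RNAPOL2 and H3K27ac, with 4 labelled samples for each and 4 samples of input chromatin. Each antibody is represented by 1 list that gives the bounds and the score of every peak. The lists held 10665 V5 peaks, 27552 H3K27ac peaks and the 20375 RNAPOL2 peaks. The study describes more than 1 set of EA1 sites, of which the V5 list used here is not the largest, so shares with V5 refer to this list and could be higher with a longer one. No value per tumor could be given, all intervals cover counting error only, and no test between conditions was possible.

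RNA polymerase II initiates at promoters, is phosphorylated as it escapes and elongates, and travels the whole gene body before transcripts are cleaved and the enzyme is released past the polyadenylation site. Acetylation of H3K27 marks active promoters and enhancers, so RNAPOL2 within a gene can belong to an intragenic enhancer, an internal promoter or an enzyme that is elongating or has slowed down. ATF1 is a basic leucine zipper factor that binds the cyclic AMP response element, and EA1 keeps that DNA-binding domain.

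The strongest of these peaks are best introduced by their DNA, because several of them stood on repeated sequence. The stretches were read from mouse assembly GRCm38, the build that mm10 names, and are written 5′ to 3′. The middle of the peak with the highest score, in an intron of Mepe, an extracellular phosphoglycoprotein of bone and teeth, was a short tandem repeat at chr5:104331426-104331575 on the plus strand.
Mepe: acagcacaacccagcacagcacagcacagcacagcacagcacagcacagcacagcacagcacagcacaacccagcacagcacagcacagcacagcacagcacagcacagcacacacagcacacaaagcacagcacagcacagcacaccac
Other high-scored peaks lay in introns of Il1rapl1, a synaptic receptor related to interleukin receptors, and of Arhgef12, a guanine nucleotide exchange factor. Their middles were copies of 1 interspersed sequence and are shown because they differed at 2 of 148 aligned bases. The first is chrX:87730911-87731060 on the minus strand, and the other is chr9:42991386-42991535 on the plus strand, opposite to its gene.
Il1rapl1: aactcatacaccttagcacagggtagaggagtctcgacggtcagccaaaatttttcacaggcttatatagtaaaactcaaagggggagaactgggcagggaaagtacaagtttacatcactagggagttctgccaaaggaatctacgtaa
Arhgef12: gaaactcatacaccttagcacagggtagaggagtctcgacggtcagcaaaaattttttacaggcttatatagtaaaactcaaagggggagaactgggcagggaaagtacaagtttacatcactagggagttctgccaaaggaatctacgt
In the reference, the central 50 bases occurred at 91 places for Il1rapl1, at 29 for Arhgef12, and at 132 for the peak in Galnt11, an enzyme of O-glycosylation. How reads that match several places were assigned was not given in the sources used here, and their part in these scores was not tested.

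A different kind of member covered an exon with its flanking intron. The highest-scored peak with a whole internal coding exon lay in Wipi1, which acts in autophagy. The window chr11:109585024-109585263 is shown on the minus strand with the 98 exon bases in capitals, and the intron begins directly after them with the letters of a splice donor.
Wipi1: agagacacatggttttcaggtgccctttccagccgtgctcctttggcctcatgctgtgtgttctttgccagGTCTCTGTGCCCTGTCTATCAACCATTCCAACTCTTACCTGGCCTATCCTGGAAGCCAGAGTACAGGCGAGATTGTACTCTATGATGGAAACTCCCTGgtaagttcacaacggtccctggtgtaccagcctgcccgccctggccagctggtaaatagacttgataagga
A small number of peaks were shared with the fusion protein. The highest-scored one on unique sequence was in Lrrc1, a leucine-rich repeat scaffold protein, where the middle of the stretch shared by the RNAPOL2 and V5 peaks was chr9:77484911-77485110 on the minus strand.
Lrrc1: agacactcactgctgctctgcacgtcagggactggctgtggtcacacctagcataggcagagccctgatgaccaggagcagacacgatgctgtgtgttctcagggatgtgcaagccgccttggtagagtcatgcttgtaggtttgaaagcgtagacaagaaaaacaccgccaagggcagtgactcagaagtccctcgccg
Among peaks that held the canonical ATF/CREB motif TGACGTCA anywhere within them, the highest score belonged to a peak in Arfgef3. Among those that held the AP1 motif TGAGTCA it belonged to a peak in Synpr, which encodes a synaptic vesicle protein. They are shown at chr10:18626869-18626988 on the minus strand and chr14:13596633-13596752 on the plus strand, with the motif in capitals.
Arfgef3: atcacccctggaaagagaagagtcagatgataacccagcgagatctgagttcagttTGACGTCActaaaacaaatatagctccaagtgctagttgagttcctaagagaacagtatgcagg
Synpr: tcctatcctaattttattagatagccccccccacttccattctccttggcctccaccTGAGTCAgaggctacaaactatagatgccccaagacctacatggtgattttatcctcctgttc

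As a group, the unacetylated gene-body peaks were weak and ordinary in width. Their median score was 47 (95% interval 47 to 54), the quartiles were 39 and 68, and the range was 23 to 2442. The score is the authors' whole number, on a scale that is not stated, so it is compared only within the RNAPOL2 list. The whole list had a median of 246, promoter peaks had a median of 543, and the 1463 acetylated gene-body peaks, which met the same rule apart from sharing bases with H3K27ac, had a median of 71. Of the 1677 peaks, 12 scored above the median of the list (0.716%), 145 reached 100 and 8 reached 500. The median width was 900 bp (870 to 930), against 890 bp (860 to 920) for the acetylated peaks. The narrowest were 500 bp, which was the smallest width in the list, and 43 (2.56%) were wider than 5 kb.

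Few of these peaks overlapped EA1 as listed here. A V5 peak overlapped 17 of 1677 (1.01%, 95% Wilson interval 0.634 to 1.62%), whereas 20.9% of all RNAPOL2 peaks and 562 of 1463 acetylated gene-body peaks (38.4%, 36.0 to 40.9%) had one. Both classes lay in coding genes and outside TSS windows, and their intervals did not overlap. They are split by H3K27ac, however, and the study reports that much EA1 binding overlaps H3K27ac. The contrast is therefore not independent of the rule. Promoter peaks had V5 at 22.0%, and the 1323 unacetylated RNAPOL2 peaks past gene ends had it at 6 (0.454%, 0.208 to 0.986%). V5 peaks within 10 kb were found for 436 of the unacetylated peaks (26.0%) and for 66.8% of the acetylated ones. The share was 35.1% over all RNAPOL2 peaks, 33.1% for promoter peaks and 19.0% for the unacetylated peaks past gene ends. With the upper 50% of the V5 list by score, the overlap was 0.298%. With the upper 50% of the RNAPOL2 list it was 16.7%, of only 12 peaks.

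**Figure D1:**
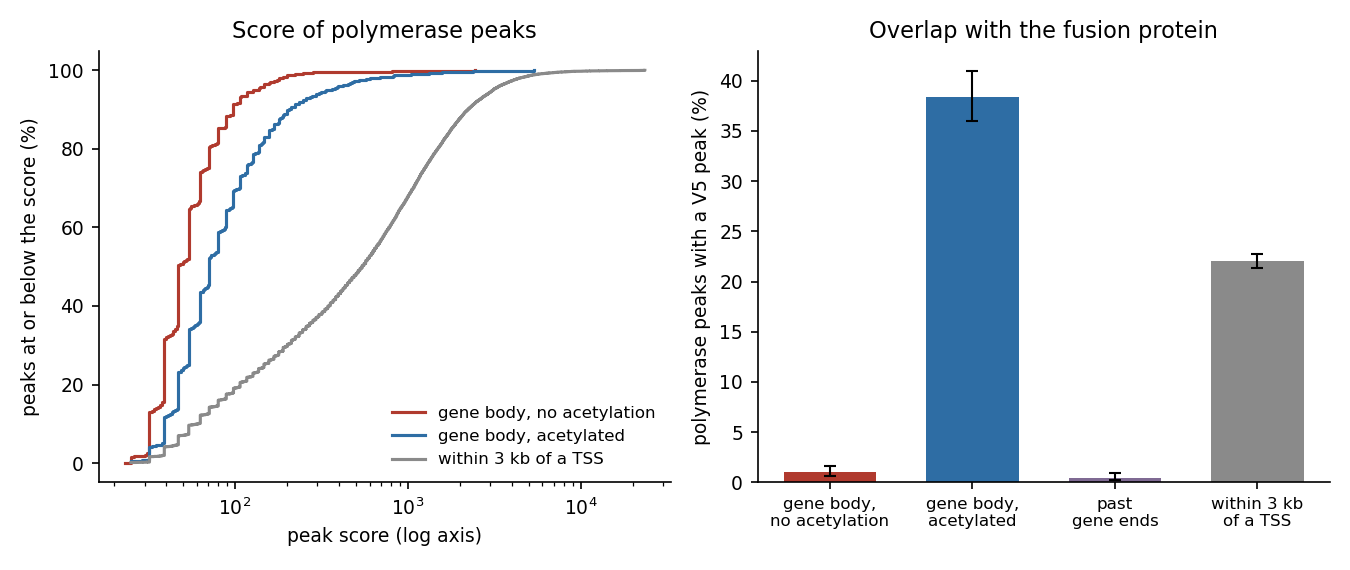
Left, cumulative share of RNAPOL2 peaks (%) against score on a log axis for 1677 unacetylated and 1463 acetylated gene-body peaks and for peaks within 3 kb of a TSS. Right, share of the peaks of each class that overlap a V5 peak, with 95% Wilson intervals. The unacetylated class has a median score of 47 and a V5 share of 1.01%, against 71 and 38.4% in the acetylated class.

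The 17 peaks with V5 were led by Il1rapl1, with an RNAPOL2 score of 928 and a V5 score of 455. This was the repeat copy shown above, and the nearest other RNAPOL2 peak was 1953 kb away. Lrrc1 followed with an RNAPOL2 score of 270 and a V5 score of 181. In Prrx1, a homeobox factor of limb mesenchyme, a peak of 11080 bp with a score of 168 took in a V5 peak of 790 bp with a score of 389, and 6611 of its bases were in the last exon. Tbx15, a T-box factor, had a peak of 4890 bp with a score of 133, whose V5 peak scored 121. The fifth was in Rab21, a GTPase of endosomes, with scores of 127 for RNAPOL2 and 101 for V5. The V5 peaks under these 5 ranked between 2813 and 8709 of 10665. In the central 500 bp, 4 of the 17 held TGAGTCA (23.5%), against 9.18% of all 1677 and 7.63% of all RNAPOL2 peaks, and 0 held TGACGTCA. Over the whole width of the peaks, which reached 11080 bp, 7 of the 17 held TGAGTCA (41.2%, 21.6 to 64.0%), against 19.7% of the 1677, and 1, in Creb5, held TGACGTCA.

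The unacetylated peaks gathered towards the ends of their gene records. Each peak was given to the coding gene it overlapped most, called its host, and its middle was placed between the start and the end of that gene record. The start of a record need not be the promoter in use. In Pde10a, an RNAPOL2 peak at an internal TSS spanned 275 to 285.5 kb, ahead of all its unacetylated peaks. The part of internal promoters in these positions was not tested. The median position was 70.5% of the way along (95% interval 68.4 to 73.2%), against 52.7% (50.7 to 55.5%) for acetylated gene-body peaks. The last 20% of the gene held 663 peaks (39.5%, 37.2 to 41.9%) against 301 (20.6%, 18.6 to 22.7%) of the acetylated ones. The first 20% held 143 (8.53%) against 235 (16.1%). Since the windows around TSSs and past gene ends remove more of some stretches than of others, peaks were also counted per megabase of host gene that the rule left eligible. With the gene divided into 10 equal bins, the density was 14.8 per Mb in bin 1, 26.9 in bin 5 and 79.3 in bin 10, and it was higher in each bin than in the one before.

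**Figure D2:**
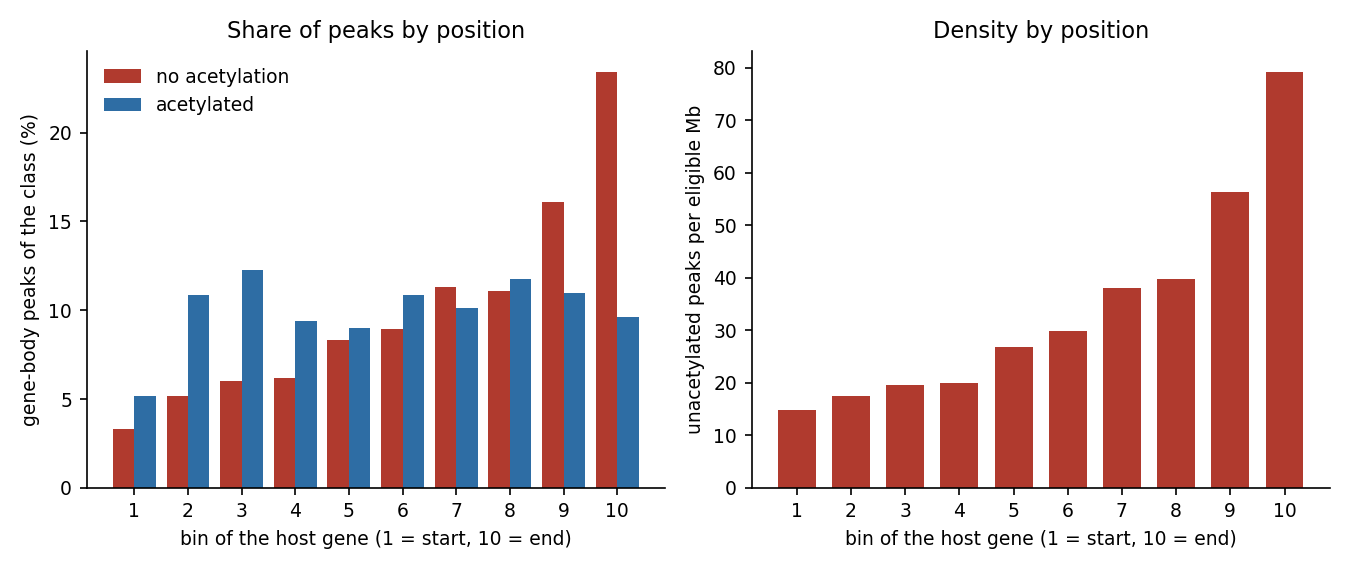
Left, share (%) of the 1677 unacetylated and 1463 acetylated gene-body RNAPOL2 peaks in each of 10 equal bins of the host gene. Right, unacetylated peaks per Mb of host gene left eligible by the rule. Bin 10 holds 23.4% of the unacetylated and 9.64% of the acetylated peaks, and the density climbs from 14.8 to 79.3 per Mb.

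The slope was also present when hosts were counted in other ways. As raw shares, not divided by eligible bases, bin 10 held 32.9% with each host given equal weight, and among the 404 hosts with a single peak, 153 of the peaks (37.9%) were there and 4 were in bin 1. Per eligible Mb of those single-peak hosts the density was 2.01 in bin 1, 10.2 in bin 5 and 56.8 in bin 10. Without the hosts of 10 or more peaks the median position was 75.3%. In distance, 532 peaks (31.7%, 29.5 to 34.0%) lay within 10 kb of the gene end, against 192 acetylated ones (13.1%, 11.5 to 15.0%), and the median distance to the end was 25.3 kb against 44.2 kb. The median distance from the gene start was 48.3 kb against 46.4 kb, and these 2 intervals overlapped (45.3 to 52.0 kb and 43.0 to 49.9 kb).

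Exons were frequent beneath the peaks. At least 1 exon base of the host was covered by 654 peaks (39.0%, 36.7 to 41.4%), against 255 acetylated peaks (17.4%, 15.6 to 19.5%). In the 12 unacetylated peaks from the upper 50% of the RNAPOL2 list by score the share was 16.7%. Of all 2264.4 kb in unacetylated peaks, 470.4 kb (20.8%) was exon, while exons were 5.66% of the eligible bases of the same hosts and 5.85% of the bases in acetylated peaks. The last exon of a transcript was touched by 388 peaks (23.1%), coding sequence by 452 (26.95%), and 273 (16.3%, 14.6 to 18.1%) lay wholly in exons, against 49 acetylated peaks (3.35%, 2.54 to 4.40%). When only the middle base of a peak was read, 374 (22.3%) of the unacetylated and 100 (6.84%) of the acetylated peaks were exonic. The exonic peaks had a median score of 54 and the purely intronic ones of 47, which are the bounds of the interval given for all 1677. The exonic peaks were also wider, with a median of 1000 bp against 840 bp, and a wider peak more easily touches an exon. A TSS known to RefSeq but outside the GENCODE windows lay under 10 peaks (0.596%), among them peaks in Pde10a, Ash1l and Ednra, and 0 of 1677 overlapped a RefSeq tRNA, snRNA, snoRNA, miRNA or rRNA, which allows a share of up to 0.179% for each.

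Zinc finger genes were picked after the values were seen, so their counts are a description. The share over all coding genes is printed beside them for scale and tests nothing. In these genes the array of zinc fingers is typically encoded by a single long exon at the 3′ end. Genes with symbols of the form Zfp and a number held 51 of the peaks in 46 hosts, of which 43 touched a last exon and 39 lay wholly in exons. Of 303 such genes with an RNAPOL2 promoter peak, 41 were hosts (13.5%), where the share over all coding genes with such a peak was 5.17%. The highest scores were 212 in Zfp2, with 1133 coding bases in a peak of 1140 bp, and 212 in Zfp110, where the peak was intronic. Zfp606 followed with 198 and 940 coding bases in a peak of 940 bp. A V5 peak overlapped 0 of the 51, which allows a share of up to 5.88%, above the 1.01% of all 1677, so no difference can be read from it. For 6 of the 51 the central 50 bases occurred at more than 1 place. These genes encode related zinc fingers, so reads may be shared among some of them.

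Host genes mostly had promoter peaks. The 1677 peaks fell in 646 hosts, of which 607 (94.0%, 91.8 to 95.6%) had an RNAPOL2 peak and 619 (95.8%) an H3K27ac peak within 3 kb of a TSS, against 53.5% and 58.6% of all 21938 coding genes. Of the 11738 coding genes with an RNAPOL2 promoter peak, 97.5% had an H3K27ac peak there as well. Counted over peaks, 97.0% lay in a host with an RNAPOL2 and 98.2% in a host with an H3K27ac promoter peak. For acetylated gene-body peaks these shares were 95.2% and 98.0%. In the 12 unacetylated peaks from the upper 50% of the RNAPOL2 list by score they were 58.3% and 66.7%. The promoter RNAPOL2 peak of hosts had a median score of 1586, against 912 over the 11738 coding genes with such a peak. Gene records had a median length of 48.6 kb in hosts and 23.4 kb in those 11738 genes. Besides the unacetylated peaks, 206 hosts also held an acetylated gene-body RNAPOL2 peak. Of all coding genes with an RNAPOL2 promoter peak, 5.17% were hosts. The share was 0.8% under 10 kb (24 of 3000), 5.05% from 10 to 50 kb, 9.40% from 50 to 100 kb, 8.54% from 100 to 200 kb and 11.7% (60 of 512) from 200 kb upwards. The rule itself ties hosts to length, since it left 13.7% of the bases of genes under 10 kb eligible and 86.5% from 200 kb upwards. Per eligible Mb the peaks ran the other way, from 11.7 in genes under 10 kb through 5.84, 5.53 and 3.81 to 2.15 in the longest. An RNAPOL2 peak in the window past the gene end was present for 446 hosts (69.0%, 65.4 to 72.5%), against 40.03% of all genes with a promoter peak. Any RNAPOL2 peak counted there, also one at a promoter of a neighboring gene or one that spans the gene end.

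EA1 was common in the host genes although few of the peaks themselves overlapped it. A V5 peak lay somewhere in the gene record of 383 of 646 hosts (59.3%, 55.5 to 63.0%), where 33.2% of coding genes with an RNAPOL2 promoter peak had one. At promoters the shares were 50.5% (46.6 to 54.3%) and 29.7%. Counted over peaks, the host had V5 in its record for 78.3% of unacetylated and 84.55% of acetylated gene-body peaks. For V5 at a promoter these shares were 63.6% and 56.7%. V5 in the gene was thus not particular to the unacetylated peaks. The V5 share of the gene record was 47.8% in hosts with 1 peak, 71.2% with 2 to 4, 93.6% with 5 to 9 and 93.8% with 10 or more. The median length rose over the same groups from 33.7 to 194.5 kb, so hosts with an RNAPOL2 promoter peak were compared with other such genes of like length. Between 50 and 100 kb, V5 was present in 71.9% of hosts (64.5 to 78.3%) and 38.2% of other genes (35.8 to 40.6%). From 200 kb upwards the shares were 90.0% (79.8 to 95.3%) and 67.5% (63.0 to 71.6%), and under 10 kb the intervals overlapped, at 37.5% (21.2 to 57.3%) and 23.8% (22.3 to 25.4%). RNAPOL2 past the gene end differed more as genes grew longer, with 67.3% of hosts and 39.2% of others from 10 to 50 kb, and 71.7% and 7.08% from 200 kb upwards. Promoter peak scores also differed within each length class, with medians of 1831 in hosts and 988.5 in others between 50 and 100 kb. The median number of H3K27ac peaks in the gene was 1 in both from 10 to 50 kb. From 200 kb upwards it was 12 in hosts and 3 in others. The part of promoter strength and of acetylation in the V5 difference was not tested.

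**Figure D3:**
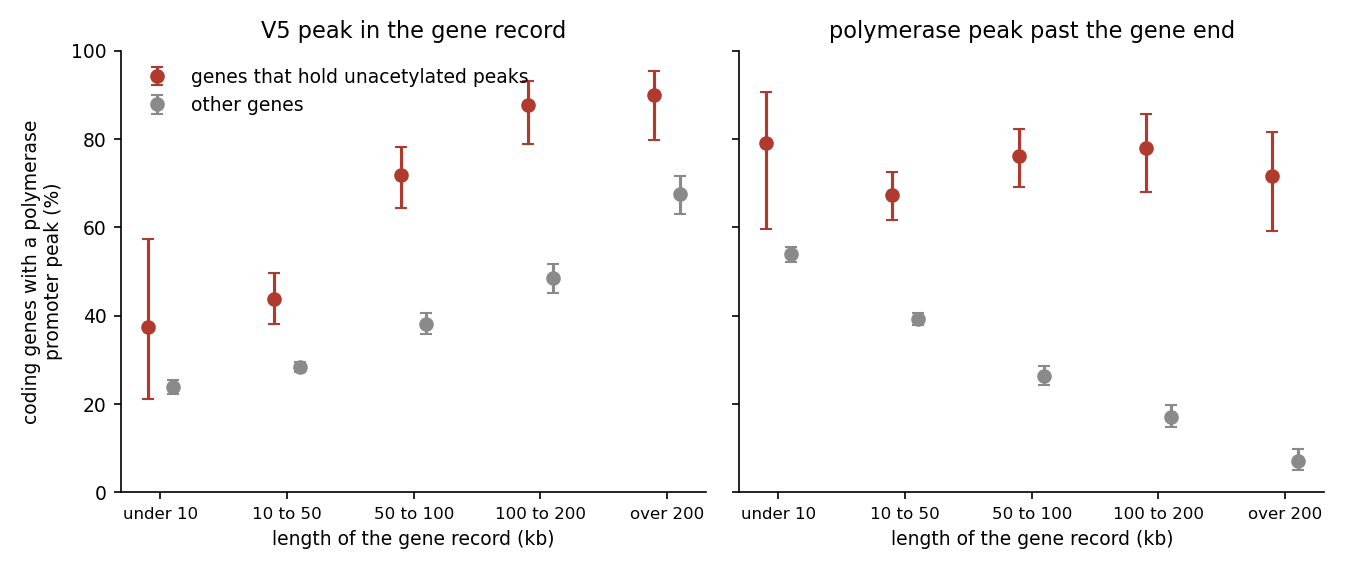
Share (%) of coding genes with an RNAPOL2 promoter peak that have a V5 peak in the gene record (left) or an RNAPOL2 peak past the gene end (right), by length of the gene record, for hosts of unacetylated gene-body peaks and for other genes, with 95% Wilson intervals. At 200 kb and longer the V5 shares are 90.0% and 67.5% and the shares past the end 71.7% and 7.08%.

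The peaks formed chains within a small set of genes. Of the hosts, 32 had 10 or more peaks and together held 562 (33.5%), and the gap between neighbors in the same host had a median of 2.14 kb, with 63.0% of 1031 gaps under 5 kb. Another RNAPOL2 peak of any kind lay within 5 kb of 1337 of the peaks (79.7%), against 62.6% of acetylated gene-body peaks. Peaks of 1 chain are not independent of each other. Arfgef3, of the family of guanine nucleotide exchange factors for ARF GTPases, had the most, with 34 peaks at scores of 25 to 168 that together covered 47.5% of its 162.1 kb. It also held 4 acetylated gene-body peaks, and the highest of its 4 V5 peaks, with a score of 17293, ranked 3 in the V5 list. Itpr2, an intracellular calcium channel gated by inositol trisphosphate, had 32 peaks, placed from 57.4 to 98.3% of its 393.9 kb. In Pde10a, which degrades cyclic nucleotides, the 27 peaks began at 63.9% of a record of 461.3 kb that also held 22 V5 peaks.

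The other genes with the most peaks had acetylated and unacetylated stretches side by side. Rab3c, a GTPase of secretory vesicles, had 26 unacetylated and 38 acetylated gene-body peaks, and its best V5 peak ranked 33. Celf4, an RNA-binding splicing factor, had 25 and 34, and the V5 peak with rank 1 of the whole list lay in this gene. Dgkg, a diacylglycerol kinase, had 25 and 6, and Fyn, a Src-family kinase, had 24 and 16. Sema6a, a membrane-bound semaphorin, had 23 and 1, with a single V5 peak of score 2168. Tbx15 had 23 and 4. Of these 9 genes, 7 had V5 at a promoter, the exceptions being Itpr2 and Rab3c, and all had V5 in the gene record. Sema6a had no RNAPOL2 peak past the end.

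**Figure D4:**
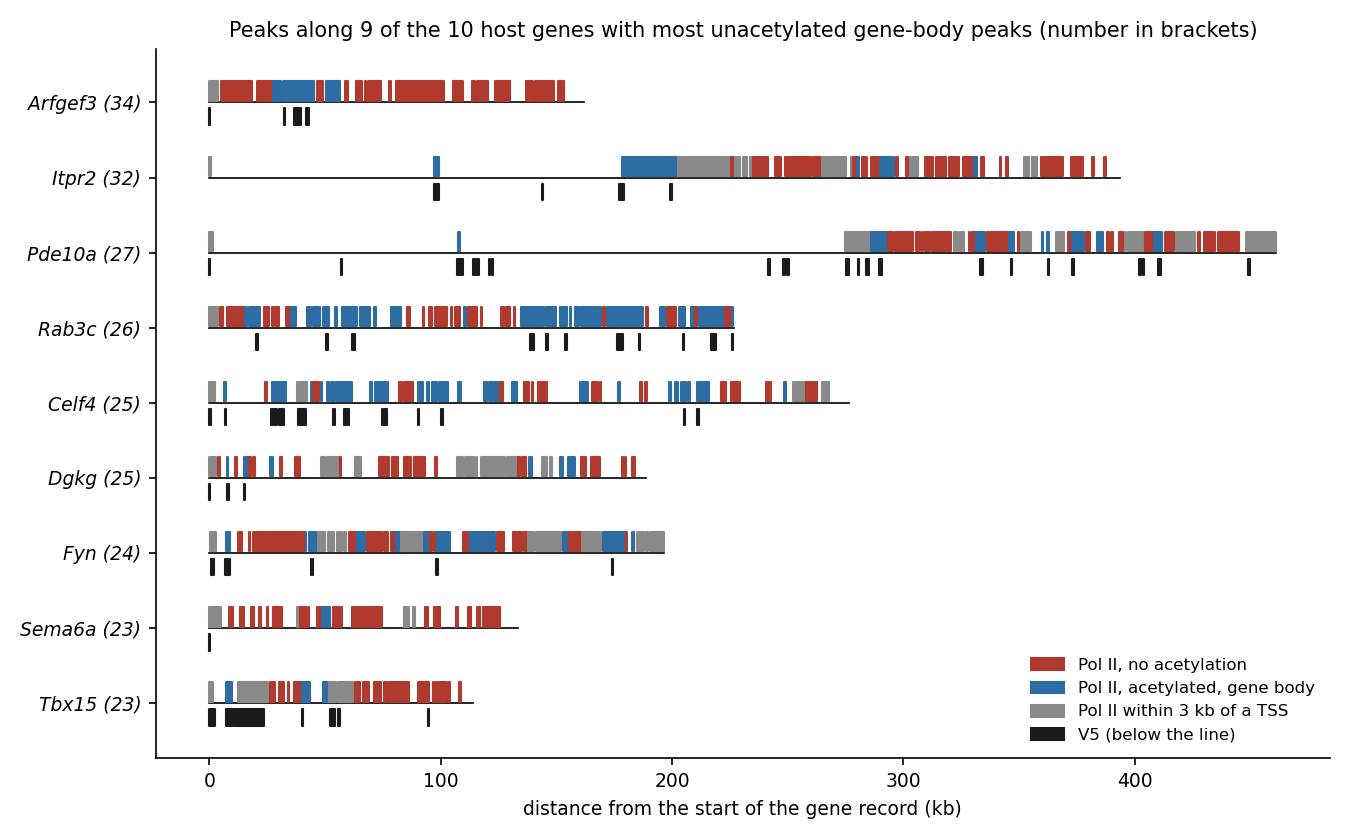
Peaks along 9 of the 10 host genes with the most unacetylated gene-body RNAPOL2 peaks, as distance in kb from the start of the gene record. Red bars are unacetylated peaks, blue bars acetylated gene-body peaks, grey bars RNAPOL2 peaks within 3 kb of any TSS, and black bars below the line V5 peaks. Narrow bars are drawn at 0.4 kb or more, and Arfgef3 shows 34 red bars over 47.5% of its length.

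The widest of the peaks were in the same kind of gene. Pde4d, a cyclic AMP phosphodiesterase of 1503.5 kb, had the 3 peaks of 24720, 13240 and 11430 bp, with scores of 137, 157 and 127, between 83.6 and 89.1% of its length. Fyn had a peak of 12690 bp and a score of 117 at 16.8% of its length, and the Prrx1 peak described above was the fifth widest. The peaks in Pde4d and Fyn were 0.210 to 0.310 kb from the next RNAPOL2 peak and held no exon base.

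The peaks with the highest scores were of another kind. The first 10 were the only such peak of their hosts, 9 of them held no exon base, and only 5 of the hosts had an RNAPOL2 peak at a promoter. They were 7.17 to 1953 kb from the next RNAPOL2 peak. After Mepe (2442), Nedd9, a scaffold protein of focal adhesions (975), Il1rapl1 (928) and Arhgef12 (835) came Galnt11 (805), Asic4 of the acid-sensing channel family (680), Synpr (537), Wipi1 (502), Mindy2, a deubiquitinase (395), and Ttc34, a tetratricopeptide repeat protein (282). Repeat-masked sequence filled 100% of the central 500 bp in Arhgef12, Galnt11, Asic4 and Mindy2, 96.4% in Il1rapl1, 92.4% in Mepe and 51.0% in Nedd9. It filled 16% in Synpr, 7.40% in Ttc34 and none of it in Wipi1. Asic4 had 3 and Mindy2 had 18 copies of its central 50 bases in the genome. Over 50% of the window was repeat-masked in 6 of the 8 peaks scored 500 or more, in 6 of the 18 from 200 to 500, in 21 of the 119 from 100 to 200 (17.6%), and in 64 of the 851 below 50 (7.52%). The central 50 bases occurred more than once in the genome for 64 of all 1677 peaks (3.82%, 3.00 to 4.84%), against 1.71% (1.16 to 2.51%) of acetylated gene-body peaks and 3.25% (3.02 to 3.51%) of all RNAPOL2 peaks, a share within the interval of the unacetylated ones. The values described before changed little without the repeat-rich peaks. In the 1515 peaks with at most 50% masked, V5 overlapped 0.924%, exons 40.9%, the median position was 72.9% and the median score was 47.

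**Figure D5:**
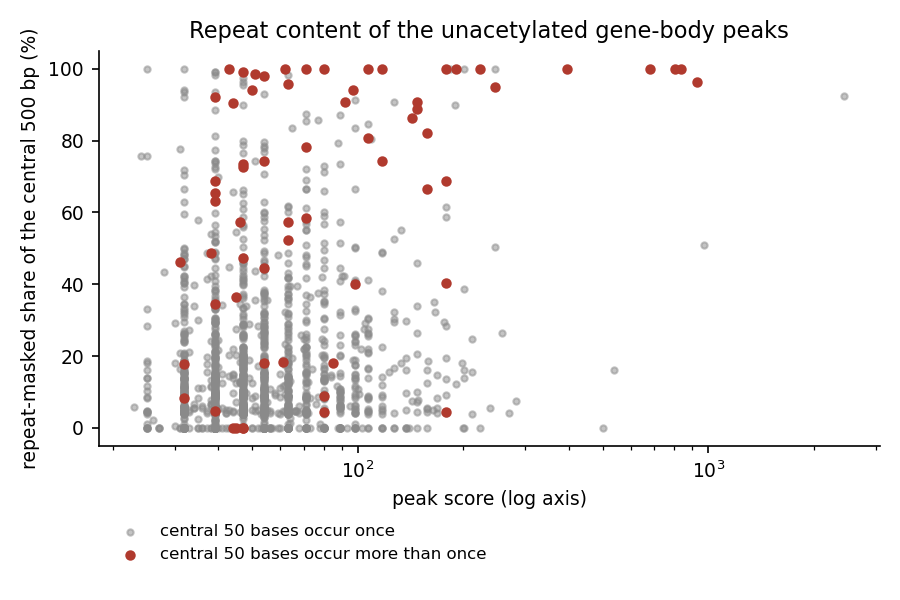
Repeat-masked share (%) of the central 500 bp against score, on a log axis, for the 1677 unacetylated gene-body RNAPOL2 peaks. Red points are the 64 peaks whose central 50 bases occur more than once in the reference genome, and 6 of the 8 peaks scored 500 or more lie above 50%.

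Hosts with no RNAPOL2 peak at a promoter numbered 39 and held 50 of the peaks, with a median score of 71 and a median width of 755 bp. A V5 peak overlapped 1 of these 50. Mepe, Il1rapl1, Asic4, Synpr and Ttc34 were among them, and none of the last 4 had H3K27ac at a promoter either.

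In base composition, the unacetylated peaks were unlike promoters. The central 500 bp had a median GC content of 47.8% (47.4 to 48.0%), against 51.2% (50.8 to 51.4%) in acetylated gene-body peaks and 61.8% in promoter peaks. The observed over expected ratio of CpG was 0.2004 (0.194 to 0.210) against 0.253 (0.243 to 0.261) and 0.735. A window with GC above 50% and a ratio above 0.6, a common description of a CpG island, was found in 16 of the peaks (0.954%, 0.588 to 1.54%), in 3.96% of acetylated gene-body peaks and in 61.5% of promoter peaks.

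Motifs were counted on both strands of the same windows. The canonical ATF/CREB motif TGACGTCA was in 7 of 1677 (0.417%, 0.202 to 0.859%), in 2.05% (1.44 to 2.91%) of acetylated gene-body peaks and in 2.35% of all RNAPOL2 peaks. The AP1 motif TGAGTCA was in 154 (9.18%, 7.89 to 10.7%), in 17.7% (15.8 to 19.7%) of the acetylated ones and in 7.63% of all. Other sequences of the form TGANNTCA were in 21.4% (19.5 to 23.4%), 23.0% (20.9 to 25.2%) and 13.4%, and the first pair of intervals overlapped. The GC box GGGCGG, bound by SP factors, was in 8.88% against 20.9% of acetylated and 51.1% of all peaks, and the ETS motif CCGGAAGT was in 4 peaks (0.239%), against 5.37% of all. The letters TATAAA were in 23.6% (21.6 to 25.7%) against 16.2% (14.4 to 18.2%) and 12.1%. On the strand of the host, the polyadenylation signal AATAAA was in 19.8% (17.96 to 21.8%) against 13.3% (11.6 to 15.1%) of acetylated peaks, and the splice donor GGTAAGT was in 31 (1.85%, 1.30 to 2.61%) against 12 (0.820%, 0.470 to 1.43%). Over all RNAPOL2 peaks with a host, AATAAA was in 10.5% and GGTAAGT in 2.32%, the latter within the interval of the unacetylated peaks. The GC content differed as given above, and its part in these shares was not tested. A match says only that the letters were present.

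By pathway, hosts were counted in lists of genes, where 5.17% of coding genes with an RNAPOL2 promoter peak were hosts. Of the 20 genes of actin cytoskeleton and adhesion, 7 were hosts (35.0%) with 17 peaks. They were Myh9, a non-muscle myosin heavy chain, with 5, Sptan1, a spectrin, with 4, Ahnak, a giant scaffold protein, with 4, and Cald1, Itgb1, Tpm1 and Tpm4 with 1 each. The 4 peaks of Ahnak lay wholly in exons. The list had a median gene length of 63.8 kb, against 23.4 kb for all genes with a promoter peak. Among 17 chromatin regulators, with a median length of 88.1 kb, 6 were hosts (35.3%) with 17 peaks. Among them, Arid1a, a subunit of SWI/SNF, and Kmt2d, an H3K4 methyltransferase, had 3 each, Crebbp, an acetyltransferase that binds CREB, had 2, and its relative Ep300 and the remodeler Chd4 had 1 each. Of 19 genes of polymerase and elongation, with a median length of 37 kb, 5 were hosts (26.3%). They were the kinases Cdk12, with 1 peak, and Cdk13, with 3, and Aff4, Ccnt2 and Pcf11 with 1 each.

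Genes of the ATF/CREB family and the cAMP response had 4 hosts among 21 (19.0%), with 26 peaks, of which Pde4d held 19. Pde4b, another cAMP phosphodiesterase, had 4 peaks between 94.6 and 98.5% of its 519.7 kb. Crem, a CREB-related factor, had 2 peaks at 93.05 and 95.8% of the gene, with scores of 32 and 54, while its best V5 peak scored 19716 and its promoter RNAPOL2 peak 8192. Nr4a2, a nuclear receptor induced by cAMP, had 1 peak with a score of 47 at 92.3%. The 18 genes of the extracellular matrix with a promoter peak had a median length of 84.8 kb. Of these, 3 were hosts (16.7%, Col3a1 with 3 peaks, Lamb1 with 2 and Col4a1 with 1). In RNA processing 1 of 20 was a host (5%, Son), in glycolysis 1 of 14 (7.14%, Ldha), in translation factors 2 of 15 (13.3%, Eif3a and Eif4b), and in chaperones 2 of 14 (14.3%, Hsph1 and Pdia3), with 1 peak each.

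Markers of the cell types that a tumor of the hindlimb could hold mostly lacked RNAPOL2 at their promoters, so they say little about these peaks. Of the lists for CCS and melanocytes or neural crest (11 genes), skeletal muscle (12), leukocytes (8) and endothelium (7), 0 genes were hosts. Of 8 fibroblast markers only Col3a1 was. Promoter RNAPOL2 peaks were found for 2 of 11, 1 of 12, 1 of 8, 2 of 7 and 4 of 8 in the same order, so 1 of 10 markers with such a peak was a host. H3K27ac promoter peaks were found for 4 of 11, 1 of 12, 6 of 8, 4 of 7 and 7 of 8. In the first list, Sox10, Dct and Tyr had no promoter RNAPOL2 peak, whereas Mitf and Pmel had one. In bulk tissue a low number of cells and a low signal in each cell cannot be told apart.

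Across chromosomes the share of RNAPOL2 peaks that met the rule ran from 4 of 349 (1.15%) on chromosome X to 101 of 677 (14.9%) on chromosome 18. Celf4 and Sema6a, with 48 peaks between them, are on chromosome 18.

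The peaks at the edges of the rule were as follows. The nearest to a TSS window were in Nedd4, Ramp3 and Antxr1, at 3011, 3017 and 3018 bp from a TSS, with scores of 80, 39 and 54. Just outside were peaks in Orc3, Sstr3 and Tpm3, at 2985, 2980 and 2971 bp, with scores of 39, 47 and 39. Peaks in Zmiz1, Tmem132d and Col3a1 were 10, 20 and 40 bp from H3K27ac, and peaks in Carmil1, Rab3c and Ski shared 20 bp with it and so counted as acetylated. Near the window past gene ends, peaks in AW554918, Txnl4a and Kdm2a missed it by 1, 7 and 12 bp, and peaks in Pcnp, Ppt1 and Zfp385a entered it by 13, 14 and 24 bp. H3K27ac was within 1 kb of 149 of the peaks (8.88%) and more than 10 kb away from 741 (44.2%), with a median gap of 8.34 kb.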

How the data were processed

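The authors made ChIP-seq libraries from mouse CCS tumors, with 4 labelled samples each for V5, RNAPOL2, H3K27ac and input. Per the methods and the submitters' processing notes, reads were aligned to mm10 with BWA 0.7.10-r789, peaks were called with MACS2 2.2.6 against input, with the broad option for H3K27ac, and peaks in denylisted regions were discarded. The authors deposited 3 peak lists, 1 for each antibody, whose start, end and whole-number score were used as given. The methods name more V5 and RNAPOL2 samples than the labels, and which samples entered each list is not stated. The methods describe averaging replicates and normalizing for depth only for signal tracks, not for the peak lists. The study describes more than 1 set of V5 sites, and the list used here is not the largest. The lists hold no read counts, so the depth behind each peak is unknown. Input samples were not analysed here.

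Positions were compared with GENCODE vM21 (55413 genes on chromosomes 1 to 19, X and Y, of which 21938 were protein-coding), and 0 RNAPOL2 peaks ran past a chromosome end in GRCm38. Peaks overlapped when they shared at least 1 bp. A host was the coding gene with the most shared bases, the shorter record if tied. 55 peaks overlapped more than 1 record. Repeat masking was read from the lower-case letters of the RefSeq assembly, whose gene models were the second annotation. Intervals (95%) are Wilson intervals for shares and order-statistic intervals for medians. They treat peaks as independent, which neighbors are not. No test was made, since each antibody had 1 list and peaks are not replicates. The overlap, gap and interval functions were tested on simulated data.

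The rule for these peaks, the gene lists and the comparisons were chosen with earlier results of these data known. Genes named were the 10 peaks with the highest score, the 10 hosts with the most peaks, the 5 widest, the 5 highest-scored with V5, the 3 nearest each threshold on either side and hosts in the lists. Some of these are not reported here. The zinc finger genes, the genes with a RefSeq TSS and the gene named for a motif were added after values were seen. Python 3.11.15, numpy 2.4.6, pandas 2.3.3 and matplotlib 3.10.9 were used.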

Additional observations from a re-analysis of the deposited data

How the results depend on the processing

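Of 69 values recomputed under other settings, 51 stayed within the interval of the reported value, or within 1.5 times for the count. The setting that asked for the middle base in a coding gene record could only return the same 1677 peaks. A peak whose middle leaves the gene enters a window that the rule excludes. The unchanged values of that setting are among the 51 and say nothing about stability. The upper 50% of the RNAPOL2 list by score left 12 peaks and moved every value, to a V5 overlap of 16.7%, hosts with an RNAPOL2 promoter peak at 58.3%, with an H3K27ac promoter peak at 66.7%, exon overlap of 16.7%, a median position of 55.4%, a median score of 608.5 and a median width of 795 bp. The exon share was 43.0% with a TSS window of 1 kb, 35.7% with 5 kb, 36.3% with 10 kb past gene ends and 22.3% by the middle base. The V5 overlap was 0.298% with the upper 50% of the V5 list. Both settings that follow were added after the data were seen. Without hosts of 10 or more peaks, 95.5% of peaks had a host with an RNAPOL2 promoter peak (97.0% as reported), 49.96% overlapped an exon and the median position was 75.3%. Without peaks over 50% repeat-masked, hosts had RNAPOL2 at the promoter for 97.9% and H3K27ac for 98.7% of the peaks (97.0% and 98.2% as reported). As constructed, these settings use other or fewer peaks, and other causes were not tested.

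No paired analysis was possible because each antibody is represented by 1 list without values per sample. Absence of a V5 or H3K27ac peak means that none was called, at a depth that the lists do not give.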
